A study of Mus musculus with 6 samples.

Results

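Chemokines and their receptors were followed in adult mouse kidney RNA: every gene whose symbol is Ccl, Cxcl, Ccr, Cxcr, Cx3cl, Cx3cr, Xcl or Xcr plus a number, with or without a final letter. On Affymetrix Mouse Gene 2.1 ST arrays, which read each gene through a set of probes called a transcript cluster, 51 such genes had a cluster with a single gene symbol, of 22180 genes in all. They were 34 ligands and 17 receptors. Of the related symbols in the RefSeq gene table, Ccl19, Ccl21a, Ccl21b, Ccl21c, Ccl21d and Ccl27b had only clusters that carry several symbols and are given separately.

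The arrays labelled Pax28 dKO, called the knockout arrays (1, 3 and 5), come from mice homozygous for floxed Pax2 and Pax8, with Cre made inducible by tamoxifen from the Rosa26 locus. That locus is active in most cell types, leukocytes included, so Cre is not restricted to kidney tubules. The controls (2, 4 and 6) lack Cre and also received tamoxifen. Both groups thus share the drug, a course of 50 mg/kg on each of 3 days that began at 8 weeks of age and was repeated at 10 weeks. The kidney was taken 14 days after the last dose. All 6 samples also share the chow, recorded from 3 to 12 weeks. Each group holds 2 females and 1 male (knockout 1 and control 4). Nothing states that each array is a separate animal, and the spread behind each p-value is that between these samples, which may be technical.

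Chemokines are small secreted proteins that guide leukocytes along a gradient, and they are classed as CC, CXC, CX3C or XC by the spacing of conserved cysteines near the amino end. Their receptors are G protein-coupled receptors that sit mainly on leukocytes, and most receptors take several ligands. In the kidney, injured tubule cells, endothelium and resident macrophages are known sources of ligand, and the receptors are carried mostly by infiltrating or resident immune cells. Bulk RNA cannot tell more cells of a type from more RNA per cell, and this holds for every difference below.

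The 6 arrays had median values between 3.81 and 3.87 log2. Pax8 did not fall on the knockout arrays, at 10.11, 10.59 and 10.39 log2 against 8.89 to 9.09 in the controls (adjusted p = 0.0037, higher), and Pax2 stood at 6.11, 6.49 and 6.16 against 6.09, 5.77 and 6.08 (adjusted p = 0.19). Whether the probes read the floxed part of either gene was not tested, so these levels leave the deletion unchecked. The cause of the higher Pax8 level was not tested either. Every direction is therefore that of the arrays so labelled. The kidney label was borne out by the levels of Umod, made by the thick ascending limb (11.41 to 11.88 log2 over the 6 arrays), and Lrp2, the proximal tubule receptor megalin (10.69 to 11.41). Among 9 measured kidney tubule and podocyte markers 2 fell, Cdh16 and Slc34a1, and none was near background. Both calls were lost without knockout 5, control 2 or control 6. At an unadjusted limma p under 0.05, 6 markers were lower and 2 higher (median difference -0.34 log2). The summed linear level of the list was 15393 to 15769 on the knockout arrays against 16852 to 17995 in the controls.

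Of the 51 genes, 7 rose on the knockout arrays and none fell. They were the ligands Cxcl10, Ccl2, Cx3cl1, Ccl12, Ccl17 and Ccl9 and the receptor Cx3cr1. That is 13.7% of the members called higher, where 4.12% of all genes were called higher and 3.08% lower by the same limma test (7.2% in either direction). At an unadjusted p under 0.05, 17 members were higher (33.3%, against 11.6% of all genes) and 4 lower (7.84%, against 10.5%). The 3 knockout arrays lay wholly above the 3 controls for 12 members (23.5%, against 11.7% of all genes) and wholly below for 3 (5.88%, against 10.8%); either held for 29.4% of members and 22.5% of all genes. The median log2 difference was 0.08 over the members and -0.01 over all genes. With single arrays left out, 4 members were called without knockout 5, namely 3 of the 7 and Ccl5. Without knockout 3 there were 5, namely 4 of the 7 and Ccl28. Without knockout 1 or control 4 there were 6, namely 5 of the 7 and Ccr2. The count was 1 without control 2 and 1 without control 6, and that 1 gene was Cxcl10.

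**Figure D1:**
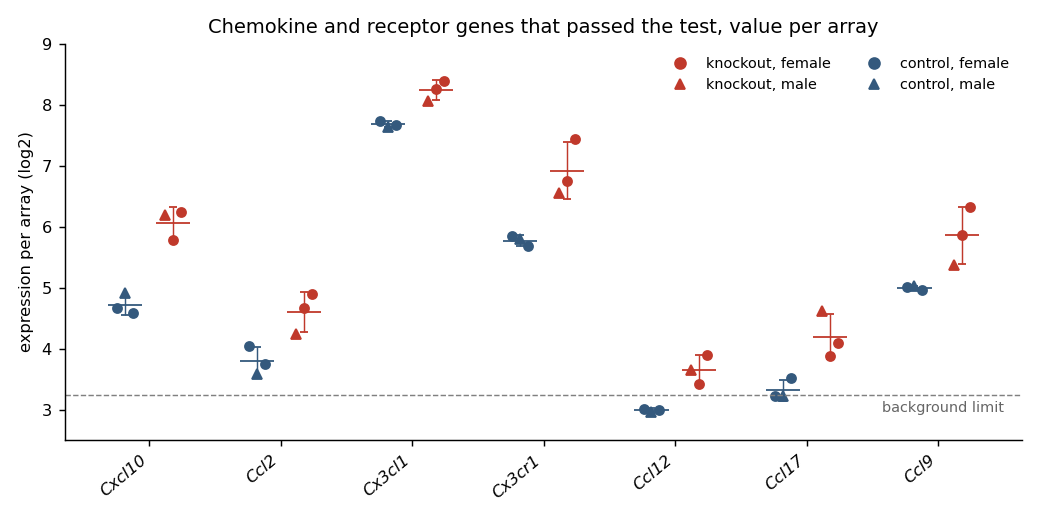
Value per array (log2) of the 7 genes that passed, with knockout arrays in red and controls in blue, males as triangles, horizontal lines for group means and bars for 1 SD (n = 3). All 3 knockout points lie above all 3 control points for each gene, and the Ccl12 controls lie below the dashed background limit of 3.25.

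The array has no detection call, so a background limit was set at the 90th percentile of 1373 olfactory and vomeronasal receptor genes, a family with little expression in kidney, which gave 3.25 log2. By this limit 13 members were near background in both groups, and none of them was called. These were 10 of the 17 receptors and 3 of the 34 ligands (Ccl1, Cxcl3 and Cxcl5). Their group means ran from 2.01 to 3.12, and their differences from -0.25 to 0.16. A further 4 members had 1 group mean under the limit (Ccl8, Ccl12, Ccl22 and Xcl1), and 34 were above it in both groups.

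Of the 3 ligands of Cxcr3, a receptor carried by activated T and NK cells, Cxcl10 rose. Cxcl10 is an interferon-induced chemokine (Entrez gene 15945) and stood at 6.19, 5.78 and 6.23 log2 on knockout 1, 3 and 5 against 4.66, 4.90 and 4.59 on control 2, 4 and 6. The groups were well apart, the lowest knockout value lying above the highest control. The difference was 1.35 ± 0.13 log2 (SE), a fold of 2.55, with a limma adjusted p of 0.0043. Leaving out any 1 of the 6 arrays kept the call, with adjusted p-values between 0.0095 and 0.034.

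Cxcl9 and Cxcl11, the other two ligands of the same receptor and neighbours of Cxcl10 on the chromosome, were not called. Cxcl9, which responds to interferon gamma, was at 5.93, 5.12 and 5.38 on the knockout arrays and 4.96, 5.39 and 5.19 in the controls, so the groups overlapped (0.30 ± 0.12 log2, SE; adjusted p = 0.23). Cxcl11 read 4.12 and 4.09 on knockout 1 and 3 and 5.71 on knockout 5, against 4.35, 4.21 and 4.42 in the controls. Its difference of 0.31 log2 therefore came from 1 array, and RefSeq lists the gene as a transcribed pseudogene in the reference strain C57BL/6J. Cxcr3 itself lay lower on all knockout arrays, at 3.54, 3.36 and 3.74 against 3.81, 3.90 and 3.81, and did not pass (-0.29 ± 0.11 log2, SE; adjusted p = 0.19).

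The promoters below are those of the 1 gene whose call held in every fit and of the 1 ligand and receptor pair in which both genes rose. Sequences are from RefSeq (GRCm38.p6), cover 250 bases before to 50 after the start of the gene, and run 5′ to 3′ on the strand of the gene. Capitals mark matches, on either strand, to 3 motifs: GGG and CC with any 5 bases between for NF-kB, GAAA and GAAA with any 2 bases between for the interferon-stimulated response element, and TGANTCA for AP-1.
Cxcl10, chr5:92348840-92349139, minus strand: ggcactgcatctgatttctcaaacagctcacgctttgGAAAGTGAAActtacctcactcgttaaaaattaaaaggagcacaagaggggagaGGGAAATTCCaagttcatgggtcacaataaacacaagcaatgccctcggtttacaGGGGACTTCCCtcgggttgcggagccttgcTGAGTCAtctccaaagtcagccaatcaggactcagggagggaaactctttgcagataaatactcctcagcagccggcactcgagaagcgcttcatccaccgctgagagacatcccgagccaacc
Cx3cl1, chr8:94771930-94772229, plus strand: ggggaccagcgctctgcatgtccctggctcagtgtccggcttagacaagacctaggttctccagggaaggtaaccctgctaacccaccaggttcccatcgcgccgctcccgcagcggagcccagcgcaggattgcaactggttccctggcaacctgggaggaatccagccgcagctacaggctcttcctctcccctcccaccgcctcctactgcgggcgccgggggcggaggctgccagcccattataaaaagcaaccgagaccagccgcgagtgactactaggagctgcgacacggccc
Cx3cr1, chr9:120068247-120068546, minus strand: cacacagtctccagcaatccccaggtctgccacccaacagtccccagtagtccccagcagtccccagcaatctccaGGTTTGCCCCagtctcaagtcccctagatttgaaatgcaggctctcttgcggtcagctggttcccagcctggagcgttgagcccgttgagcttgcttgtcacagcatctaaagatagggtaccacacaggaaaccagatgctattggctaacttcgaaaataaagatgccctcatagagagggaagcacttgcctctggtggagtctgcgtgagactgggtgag

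In the Cxcl10 window the interferon element reads GAAAGTGAAA and starts 213 bases before the gene, and GGGAAATTCC starts 159 bases before it. A run in which matches to the same NF-kB letters overlap on both strands starts 104 bases before the gene, and TGAGTCA starts 74 bases before it. The window of Cx3cr1 holds 1 match, GGTTTGCCCC on the opposite strand, and that of Cx3cl1 holds none. Windows were found for 37 of the 51 members (41 windows) and for 6 of the 7 genes that rose, all but Ccl2. The loose NF-kB letters occur in 50.8% of all 32851 windows of that length and in 58.5% of the member windows, so a match to them is common anywhere. The interferon element occurs in 3.44% of all windows and 4.88% of member windows (2 windows, those of Cxcl10 and Cxcl14). The AP-1 letters occur in 7.81% and 17.1%. A match describes the letters and shows no binding.

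A stricter NF-kB form, GGGA and TTCC with any 2 bases between, was added after the data were seen. It occurs in 1.47% of all windows and in 14.6% of member windows, which are 6 of 41. Of these, 4 lie in the CXC ligands Cxcl1, Cxcl2, Cxcl3 and Cxcl10, and are shown with 15 bases on each side. The match is in capitals and, in the first 3, covers overlapping matches on both strands.
Cxcl1, chr5:90891159-90891199, plus strand: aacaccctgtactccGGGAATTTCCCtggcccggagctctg
Cxcl2, chr5:90903787-90903827, plus strand: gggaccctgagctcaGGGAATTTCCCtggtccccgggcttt
Cxcl3, chr5:90786013-90786053, plus strand: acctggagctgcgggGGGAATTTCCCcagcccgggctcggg
Cxcl10, chr5:92349024-92349063, minus strand: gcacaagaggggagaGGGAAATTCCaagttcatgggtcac
The other two are in Ccl1 and Ccr3, both near background. Of the 6 genes with this stricter match, Cxcl10 was the 1 that rose. The first 3 share the 11 letters GGGAATTTCCC, which start 71, 97 and 73 bases before the gene. These 3 genes are neighbours on the chromosome and none was called, so the 6 windows are not independent occurrences. They are the neutrophil-attracting ligands of Cxcr2 described next.

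The CXC ligands with an ELR motif, most of which act on Cxcr2 and draw neutrophils, had no called gene among 5 by limma, with 1 higher and 1 lower at an unadjusted p under 0.05. Cxcl1 (Entrez gene 14825), a neutrophil chemoattractant, stood at 4.48, 5.05 and 4.61 on the knockout arrays and 3.92, 4.26 and 4.09 in the controls. The groups did not overlap, but the difference of 0.62 ± 0.17 log2 (SE) missed the threshold (adjusted p = 0.079). Cxcl2 was at 3.23 to 3.60 on the knockout arrays and 3.39 to 3.48 in the controls. Cxcl3 and Cxcl5 were near background. Cxcl15, a chemokine best known from lung, lay lower on all 3 knockout arrays, at 3.52, 3.72 and 3.49 against 4.05, 3.81 and 3.87, and did not pass (-0.34 ± 0.10 log2, SE; adjusted p = 0.096). Cxcr2, the neutrophil receptor, read 3.33, 3.63 and 3.46 against 3.24, 3.27 and 3.54, close to the limit.

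**Figure D2:**
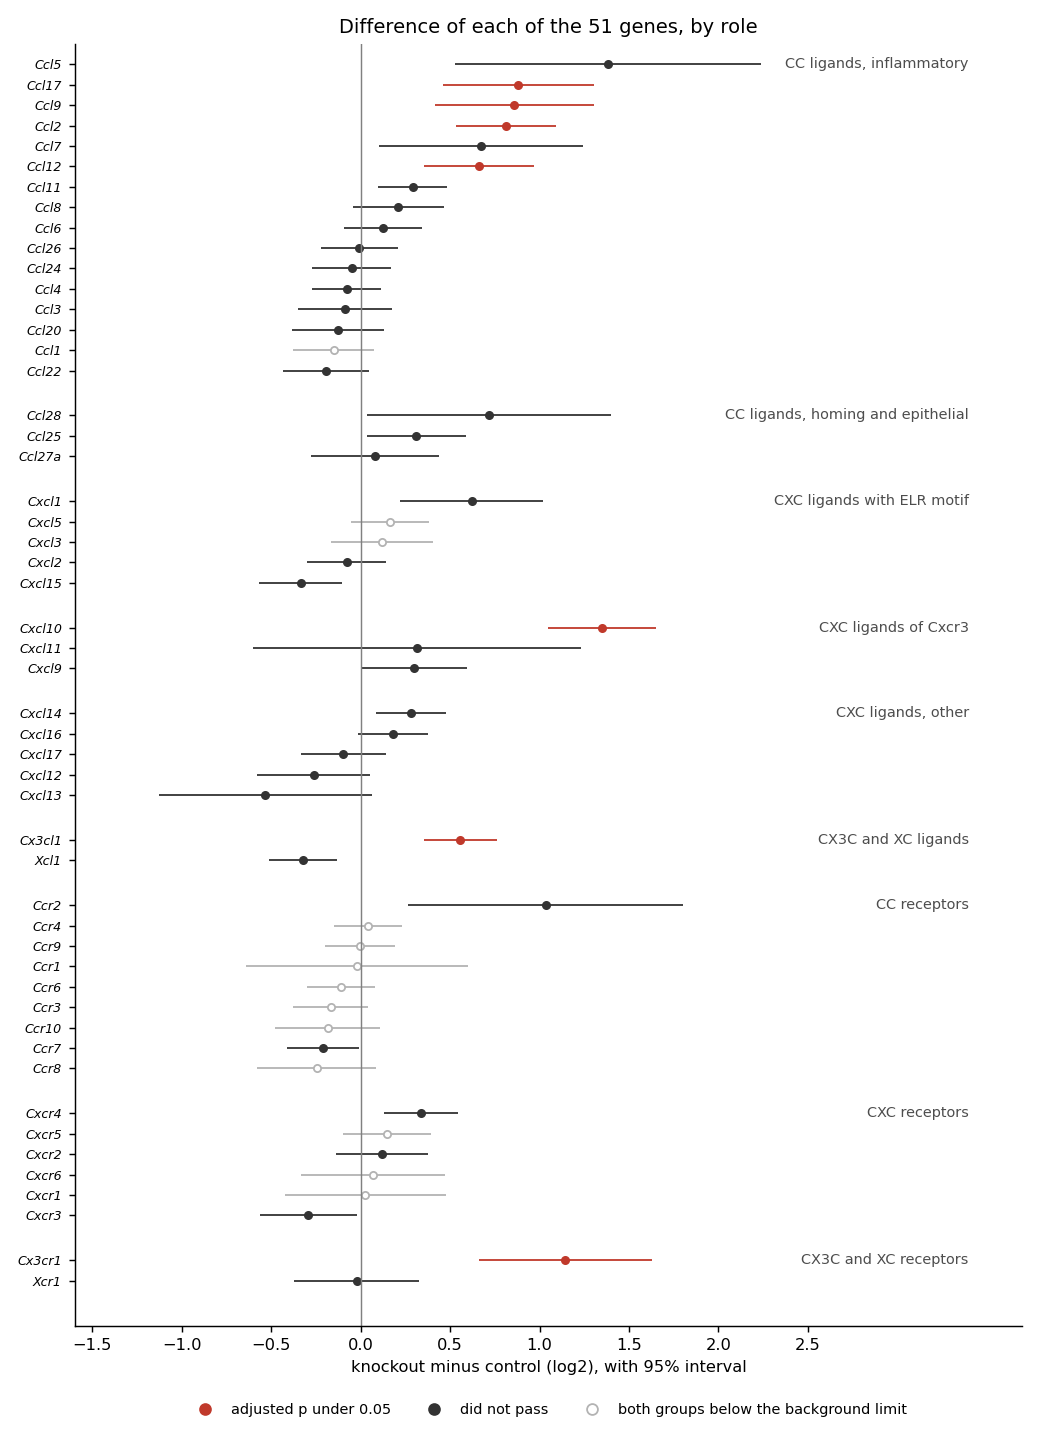
Knockout minus control (log2) of each of the 51 genes with its 95% interval from limma, grouped by role; red marks an adjusted p under 0.05 and open grey circles mark genes near background in both groups. The 7 red points lie between 0.56 and 1.35, and no gene with a difference below 0 passed.

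Of the 16 inflammatory CC ligands, 4 rose and none fell by limma (7 higher and 0 lower at an unadjusted p under 0.05), with 1 near background and a median difference of 0.17. Ccl2, the monocyte chemoattractant that acts on Ccr2 (Entrez gene 20296), was at 4.24, 4.66 and 4.90 log2 on the knockout arrays and 4.04, 3.58 and 3.75 in the controls. All knockout values were above all controls, with knockout 1 only slightly above control 2. The difference was 0.81 ± 0.12 log2 (SE), 1.75-fold, with an adjusted p of 0.014. The call was lost without control 2 or control 6, where the adjusted p reached 0.052.

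Ccl12, a second mouse ligand of Ccr2 (Entrez gene 20293), read 3.64, 3.42 and 3.90 against 3.02, 2.96 and 2.99. The controls were below the background limit, and the knockout mean lay 1.33-fold above that limit. The fitted difference was 0.66 ± 0.13 log2 (SE), with a limma adjusted p of 0.032. Ccl7, the third of these neighbouring Ccr2 ligands, was at 3.91, 4.70 and 4.48 against 3.95, 3.84 and 3.28. Its male arrays were nearly level and its groups overlapped (0.67 ± 0.24 log2, SE; adjusted p = 0.16). Ccl2, Ccl7 and Ccl12 are related in sequence, the sequences of their probes were not used here, and signal shared between them was not tested.

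Ccl17, a dendritic cell product that acts on Ccr4 of T cells (Entrez gene 20295), was at 4.61, 3.89 and 4.10 on the knockout arrays. Its controls read 3.22, 3.22 and 3.51, at or near the limit. It was 1.84-fold higher (0.88 ± 0.18 log2, SE; adjusted p = 0.034), with the male knockout 1 highest. Ccr4 was near background on every array (2.60 to 2.74 log2), and Ccl22, the other ligand of that receptor, read 2.87 to 3.26 against 3.17 to 3.41. Ccl9, a ligand of Ccr1 made by myeloid cells (Entrez gene 20308), was at 5.38, 5.87 and 6.32 against 5.03 and 4.96 on control 4 and 6, with control 2 between them. The controls agreed within 0.03 log2 (SD) and the knockout arrays spread over 0.47 (SD), so the size of the rise was poorly fixed (0.86 ± 0.19 log2, SE; 1.81-fold; adjusted p = 0.043).

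These calls were close to the threshold. Ccl12 lost its call in 5 of the 6 fits with an array left out (adjusted p up to 0.11), Ccl17 in all 6 (0.051 to 0.12) and Ccl9 in 4 of 6 (up to 0.15). Ccl9 was also lost after quantile normalization. Without the sex term Cxcl10, Cx3cl1 and Cx3cr1 were the members that passed.

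Ccl5, which attracts T cells and monocytes (Entrez gene 20304), had the largest difference of the 51 and did not pass. It was at 6.10, 5.76 and 7.17 log2 on the knockout arrays and 4.67, 5.24 and 4.97 in the controls, with no overlap. The difference was 1.38 ± 0.36 log2 (SE), 2.61-fold, with a 95% interval from 0.53 to 2.24 and an adjusted p of 0.072. Without knockout 5, the highest array, the difference was 0.90 and passed (adjusted p = 0.033), and in the other 5 such fits it did not pass.

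Ccl11, the eosinophil chemoattractant eotaxin, lay slightly higher on all knockout arrays, at 4.05, 4.10 and 4.05 against 3.66 to 3.87 (0.29 ± 0.08 log2, SE; adjusted p = 0.085). Ccl3 and Ccl4, the macrophage inflammatory proteins, had differences of -0.09 ± 0.11 and -0.08 ± 0.08 log2 (SE). Ccl6, next to Ccl9 on the chromosome, differed by 0.13 ± 0.09 log2 (SE). Ccl8, Ccl20, Ccl24 and Ccl26 had differences between -0.12 and 0.21 and overlapping groups, with adjusted p-values of 0.32 to 0.98.

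The 3 CC ligands of homing and of epithelia had no called gene by limma, with 2 higher at an unadjusted p under 0.05. Ccl28, which epithelia secrete to draw lymphocytes through Ccr10 and Ccr3, was at 10.33, 7.50 and 8.71 on the knockout arrays and 7.33, 9.51 and 7.55 in the controls; its spread followed sex and is taken up with the sex effect. Ccl25, a gut and thymus chemokine that acts on Ccr9, read 6.22, 6.41 and 6.13 against 5.91, 6.13 and 5.80 (0.31 ± 0.12 log2, SE; adjusted p = 0.18). Ccl27a had 2 single-symbol clusters; the brighter differed by 0.08 ± 0.15 log2 (SE) and the other by 0.21 ± 0.13.

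Clusters that carry several symbols were tested among all 41345 clusters, and none was called. The 13 clusters naming Ccl19, a ligand of Ccr7 on dendritic cells and naive T cells, differed by -0.09 to 0.16 log2, the 9 naming Ccl21 genes, ligands of the same receptor, by 0.04 to 0.08 and the 11 naming Ccl27 genes by -0.17 to 0.55 (smallest adjusted p 0.73, 0.91 and 0.36). The Ccl21 clusters read 6.48 to 7.71 log2. Many of these clusters repeat the same values, with 5 distinct sets of values among the 9 for Ccl21, so they are not separate measurements. Ccr7 was at 5.13, 4.62 and 4.79 against 4.97, 5.28 and 4.91 (-0.21 ± 0.08 log2, SE; adjusted p = 0.21).

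The 5 other CXC ligands, largely made by resident cells, were not called by limma, with 1 higher at an unadjusted p under 0.05. Cxcl12, the stromal ligand that retains leukocytes and progenitors through Cxcr4, was at 7.91, 8.55 and 8.13 against 8.44, 8.30 and 8.65 (-0.26 ± 0.13 log2, SE; adjusted p = 0.31). Cxcr4 was at 5.92, 6.10 and 5.89 against 5.64, 5.62 and 5.64, so all knockout arrays were above controls that agreed within 0.01 (SD). That difference of 0.34 ± 0.09 log2 (SE) gave an adjusted p of 0.069 and did not pass in any of the 14 alternative settings. Ackr3, the scavenging receptor that takes up Cxcl12 and is outside the symbol rule, fell by 0.94 ± 0.11 on the log2 scale (SE; adjusted p = 0.0077). It was at 4.97, 4.30 and 4.56 against 5.52, 5.73 and 5.41, and the fall passed in all 14 alternative settings.

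Cxcl13, which draws B cells through Cxcr5, read 4.22, 4.41 and 4.39 against 5.62, 4.20 and 4.79, so its lower mean rested on controls 2 and 6 (-0.53 ± 0.25 log2, SE; adjusted p = 0.28). Cxcr5 was near background. Cxcl14, an epithelial and fibroblast chemokine, differed by 0.28 ± 0.08 log2 (SE; adjusted p = 0.095) with overlapping groups, and passed with a trended and robust prior (adjusted p = 0.040). Cxcl16, a membrane-bound ligand of Cxcr6, was at 8.49, 8.66 and 8.79 against 8.50, 8.40 and 8.50 (0.18 ± 0.08 log2, SE; adjusted p = 0.26), and Cxcr6 was near background. Cxcl17, a mucosal chemokine, differed by -0.10 ± 0.10 log2 (SE).

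Cx3cl1 and Cx3cr1 were the 1 ligand and receptor pair in which both genes rose. Cx3cl1, or fractalkine, is anchored in the membrane of endothelium and epithelium and can be shed (Entrez gene 20312). It was at 8.06, 8.26 and 8.39 log2 on the knockout arrays and 7.73, 7.64 and 7.68 in the controls, with a gap of 0.33 between the groups (difference 0.56 ± 0.09 log2, SE; 1.47-fold; adjusted p = 0.017). Cx3cr1, its receptor on monocytes and on resident macrophages and dendritic cells of the kidney (Entrez gene 13051), was at 6.55, 6.76 and 7.44 against 5.85, 5.79 and 5.68. It was 2.21-fold higher (1.14 ± 0.20 log2, SE; adjusted p = 0.024). Without control 2 or control 6 both calls were lost (adjusted p up to 0.076 for the ligand and 0.10 for the receptor); Cx3cl1 also lost its call without knockout 3 or knockout 5.

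Xcl1, a lymphotactin made by T and NK cells, read 3.68, 3.02 and 2.98 against 3.36, 3.89 and 3.39, near the limit (-0.32 ± 0.08 log2, SE; adjusted p = 0.062). It passed as lower once genes near background were removed (adjusted p = 0.044). Xcr1, its receptor on cross-presenting dendritic cells, was at 3.50, 3.53 and 3.33 against 3.78, 3.15 and 3.50.

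**Figure D3:**
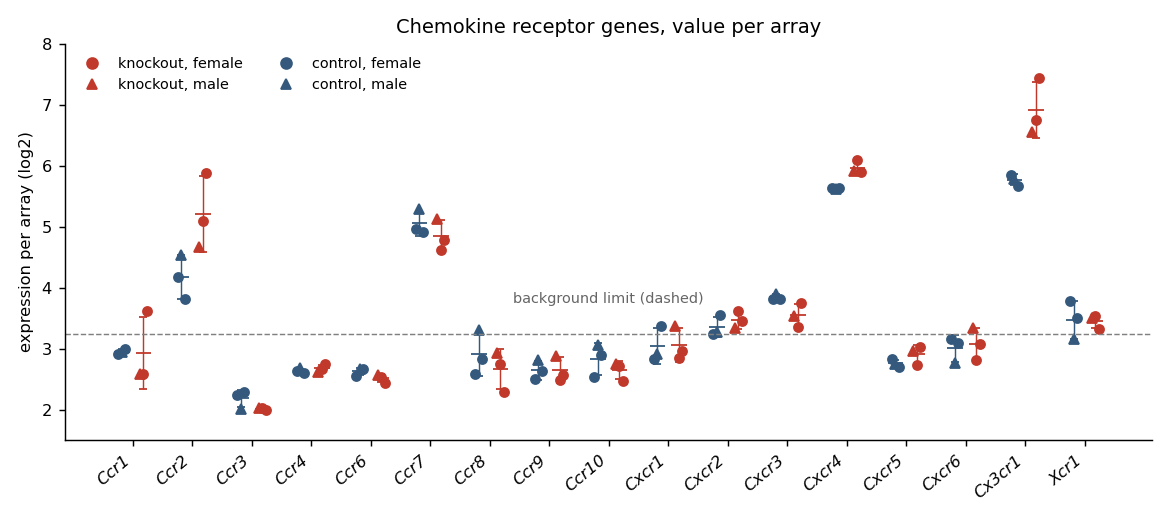
Value per array (log2) of the 17 receptors, with knockout arrays in red and controls in blue, males as triangles, lines for group means and bars for 1 SD (n = 3); the dashed line is the background limit of 3.25. Cx3cr1, Ccr2, Cxcr3, Cxcr4 and Ccr7 lie above the line on every array, and 10 receptors have both means below it.

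Of the 17 receptors, 1 was called, and 7 were not near background in both groups. Ccr2, the receptor of inflammatory monocytes (Entrez gene 12772), was at 4.66, 5.10 and 5.89 log2 on the knockout arrays and 4.18, 4.53 and 3.82 in the controls. The groups were apart, but male knockout 1 was 0.13 above male control 4, while the females differed by 1.49. Over all arrays the difference was 1.04 ± 0.32 log2 (SE; 95% interval 0.27 to 1.80; adjusted p = 0.11). The fit without knockout 1 and the fit without control 4 both leave the females alone to set the genotype effect; there Ccr2 passed (adjusted p = 0.037). Ccr1 read 2.59 and 2.58 on knockout 1 and 3, 3.62 on knockout 5 and 2.91 to 2.99 in the controls.

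In 32 ligand and receptor pairs listed, 27 had both genes measured. Both genes rose in 1 pair, the ligand alone was called in 4 (Ccl2 and Ccl12 with Ccr2, Ccl17 with Ccr4, Cxcl10 with Cxcr3), the receptor alone in 0 and neither in 22. Ccl9, which rose, was in no listed pair. In 11 of the 27 pairs neither gene was near background in both groups.

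In RefSeq gene order, 34 members lie in 9 groups of neighbours with at most 5 genes between them, and all 7 genes that rose are among them. In the group of Ccl2, Ccl7, Ccl11, Ccl12, Ccl8 and Ccl1, 2 of 6 rose, and the differences ran from -0.15 to 0.81 log2. In the group of Ccl22, Cx3cl1 and Ccl17, 2 of 3 rose, with Ccl22 at -0.20. In the group of Cxcl5, Cxcl3, Cxcl15, Cxcl1 and Cxcl2 none of 5 was called. Cxcl9, Cxcl10 and Cxcl11 had differences from 0.30 to 1.35, of which 1 passed.

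The knockout arrays differed among themselves. Of the 12 members with all knockout values above controls, 8 were highest on knockout 5, 3 on knockout 3 and 1 on knockout 1. Of the 7 that rose, 6 were highest on knockout 5. The same split was not counted over all genes, so it is not shown to be particular to the members. Macrophage and monocyte markers, summed, were also highest on knockout 5. Of 14 such genes 9 rose and none fell (12 higher and 0 lower at an unadjusted p under 0.05; median difference 1.28 log2), among them Cd14 (2.00 ± 0.10, SE), the mannose receptor Mrc1 (1.74 ± 0.32), Lyz2 (1.39 ± 0.20), Cd68 (1.27 ± 0.11) and Adgre1, the F4/80 antigen (1.09 ± 0.16). The other 4 were the Fc receptor Fcgr1 (1.28) and the complement genes C1qa (1.44), C1qc (1.23) and C1qb (2.83-fold). Their summed linear level was 1431, 1674 and 2168 on knockout 1, 3 and 5 and 858 to 957 in the controls, with Cd163 near background. The list had 5 called genes without control 2 and 5 without control 6. With all arrays, 4.12% of all genes were called higher by limma, and 11.6% were higher at an unadjusted p under 0.05. The part of macrophage content in the chemokine differences was not tested.

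Lists of other leukocytes held fewer called genes. Of 9 neutrophil markers none was called by limma, 1 was lower at an unadjusted p under 0.05, and 7 were near background (S100a8, S100a9, Ly6g, Elane, Camp, Ngp and Retnlg). Their summed level was 61.8 to 67.6 against 58.8 to 67.2. Of 11 T and NK markers 2 rose, Cd4 (0.89 log2) and Klrb1c (0.50), with a sum of 145.9 to 169.7 against 130.6 to 144.6, and Cd3d, Cd8b1, Gzma, Gzmb and Klrb1c itself near background. Of 7 B and plasma cell markers Jchain (0.92) and Ighm (0.84) rose, with a sum of 1690 to 6217 against 1065 to 3168, highest on the male array of each group. Of 7 dendritic cell markers Itgax (0.68) and H2-Aa (0.95) rose; this list also holds the members Ccr7 and Xcr1, and its sum was 496 to 625 against 379 to 449. Among 7 eosinophil and mast cell markers Kit rose (0.55), and the other 6 were near background. The sum of that list was 225 to 243 against 161 to 179. H2-Aa kept its call whichever array was left out. Cd4, Klrb1c, Kit, Ighm and Itgax lost theirs without control 2 or control 6, Jchain without control 6, knockout 1, knockout 5 or control 4, and Itgax in every such fit. Ighm also lost it without knockout 1, knockout 5 or control 4, Kit without knockout 5, and Klrb1c without knockout 3 or knockout 5.

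Injured tubule markers rose in 6 of 7 cases (median 1.45 log2; sum 2795 to 3793 against 974 to 1396), namely Lcn2 (3.11), Cp (1.62), Sox9 (1.49), Clu (1.45), Krt20 (1.24) and the adhesion molecule Vcam1 (0.98). The seventh, Havcr1, which encodes the tubule injury marker KIM-1, did not pass and lay the other way, at 7.83, 6.32 and 7.34 against 8.11, 7.51 and 7.67 (-0.60 ± 0.36 log2, SE; adjusted p = 0.40). Fibroblast and matrix genes rose in 6 of 9 cases (median 0.87, sum 1857 to 2468 against 1028 to 1421). Of all genes, 4.12% were called higher by the same test. Vcam1 and the matrix gene Dcn lost their calls without control 2 or control 6, and Krt20 without knockout 5 or control 2. Postn, a matrix gene, lost its call in 5 of the 6 fits with an array left out. The other genes called in these lists kept theirs whichever array was left out. Endothelial markers had none called by limma of 7, with 1 lower at an unadjusted p under 0.05 (sum 2258 to 2381 against 2177 to 2803). Adipose markers also had none called of 7, and none at an unadjusted p under 0.05. Their sum was 1521 and 1200 on controls 2 and 6, 483 on control 4 and 637 to 1011 on the knockout arrays. The part of these cell types in the chemokine differences was not tested.

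**Figure D4:**
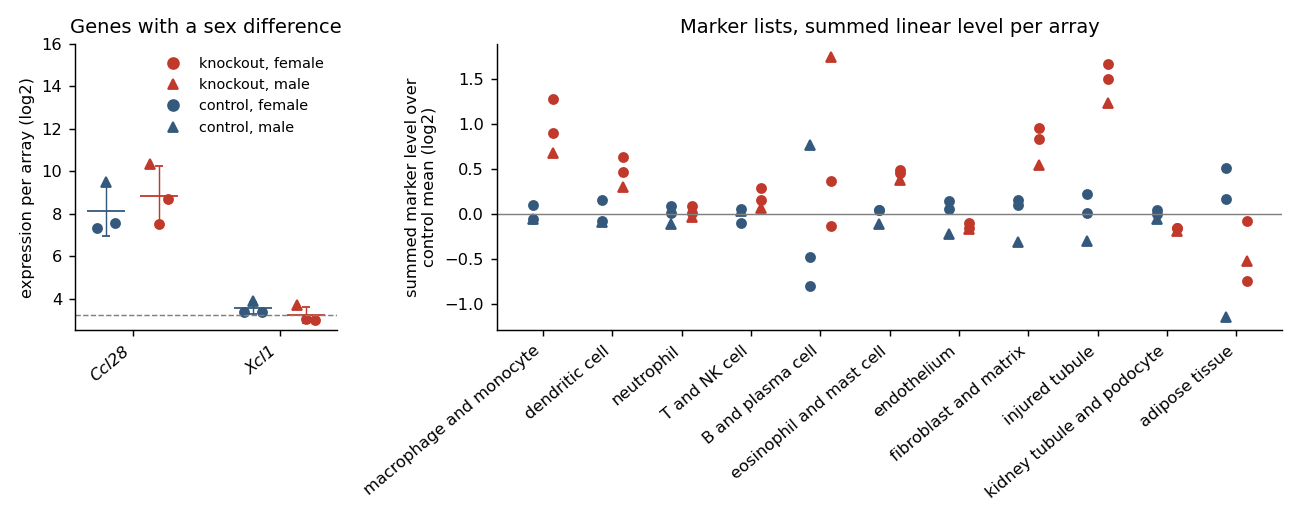
Left, value per array (log2) of Ccl28 and Xcl1, with lines for group means, bars for 1 SD (n = 3) and the dashed background limit; right, log2 of the summed linear level of each marker list over the control mean, 1 point per array. Males (triangles) lie above the females of their own group for both genes. The macrophage, dendritic, eosinophil and mast cell, fibroblast and injured tubule lists lie higher on the 3 knockout arrays (red) than on the controls (blue). So, narrowly, does the T and NK list, and the kidney tubule and podocyte list lies lower.

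Other genes of the chemokine pathway were counted from lists. Of 25 genes that induce chemokines (NF-kB and interferon factors, cytokines and their receptors) 10 rose and 0 fell (17 and 0 at an unadjusted p under 0.05; median difference 0.38 log2), where 4.12% of all genes were called higher. They included the NF-kB subunits Relb (0.82 ± 0.09, SE), Rel (0.64 ± 0.09), Nfkb2 (1.01 ± 0.18) and Rela (0.42 ± 0.08), the NF-kB cofactor Nfkbiz (0.90 ± 0.11) and Tnfaip3 (0.50 ± 0.09), which restrains the pathway. The interferon factors Irf1 (0.48 ± 0.10) and Irf8 (0.53 ± 0.11) and the receptors Ifngr1 (0.51 ± 0.11) and Tnfrsf1a (0.38 ± 0.08) made up the rest. Relb kept its call whichever array was left out, while Rela, Tnfaip3, Irf1 and Tnfrsf1a lost theirs each time. The cytokines Il6, Il1a, Il17a, Ifng and Ifnb1 were near background, Il1b differed by 0.12 ± 0.09 log2 and Tnf by 0.37 ± 0.09 (adjusted p = 0.069). The count of 10 was 6 without knockout 1 or control 4, 5 without knockout 3, 2 without knockout 5, 3 without control 2 and 1 without control 6.

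Of 31 genes of receptor signalling and desensitisation 7 rose and none fell by limma, where 4.12% of all genes were called higher. At an unadjusted p under 0.05, 19 were higher and 0 lower, where 11.6% and 10.5% of all genes were. The median difference was 0.25 log2. Dock2, the leukocyte activator of Rac, rose by 0.75 ± 0.12 log2 (SE), Pik3cg, the gamma isoform of PI3 kinase, by 0.79 ± 0.17, the arrestin Arrb2 by 0.59 ± 0.10, the receptor kinase Grk3 by 0.44 ± 0.09, Rgs2, which shortens G protein signals, by 1.05 ± 0.21, Stat3 by 0.65 ± 0.08 and the phospholipase Plcb2 by 0.43 ± 0.09. Plcb2 lost its call whichever array was left out. The count was 3 without knockout 5, 1 without control 2 and 1 without control 6, where Stat3 was the gene that remained. Among 12 genes of chemokine processing and retention 1 rose, the membrane protease Mmp14 (1.27 ± 0.08; adjusted p = 0.0017), and it passed in all 14 alternative settings.

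Of 10 chemokines and scavenging receptors outside the symbol rule, 2 rose and 1, Ackr3, fell. Pf4, the platelet chemokine also called Cxcl4, was at 3.54, 3.74 and 4.35 against 2.95, 2.93 and 3.00 (limma adjusted p = 0.031). Its knockout mean lay 1.55-fold above the limit. Cklf, a chemokine-like factor, was 1.41-fold higher (adjusted p = 0.026) with overlapping groups. Both were lost without control 2 or control 6, and Cklf also without knockout 3 or knockout 5. Ackr1 and Ackr4 were near background, and Ackr2, which clears inflammatory CC ligands, differed by -0.30 ± 0.10 log2 (SE; adjusted p = 0.14).

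Sex differed for 2 of the 51 members, both higher in males, where 1.25% of all genes were called higher and 0.618% lower in males (1.87% in either direction). No member was called lower in males by limma. At an unadjusted p under 0.05, 6 members were higher in males and 4 lower (7.84% lower, against 8.93% of all genes). The share of all genes higher in males at that level was not counted. Ccl28 (Entrez gene 56838) read 10.33 and 9.51 log2 in the males, against 7.33 to 8.71 in the females. It was 4.42-fold higher in males (2.15 ± 0.30 log2, SE; adjusted p = 0.026), and every male value was above every female value in both groups. With sex in the model its genotype difference was 0.72 ± 0.29 log2 (adjusted p = 0.20); without knockout 3 it was 1.08 and passed (adjusted p = 0.027). Xcl1 was at 3.68 and 3.89 in males and 2.98 to 3.39 in females (0.59 ± 0.08 log2, SE; adjusted p = 0.026). With an array left out, the sex call of Ccl28 remained without knockout 3 or knockout 5 and was lost in the other 4 fits (adjusted p up to 0.16), and that of Xcl1 was lost in all 6 (0.069 to 0.17). Each sex comparison rests on 1 male per group.

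A genotype effect that depends on sex was called for none of the 51 members, with 0.00451% of all genes called by limma. At an unadjusted p under 0.05 there were 5 members, 9.8% against 6.99% of all genes, namely Ccl17, Ccl9, Ccr2, Ccl27a and Cxcr6, the last near background. Ccl17 differed between genotypes by 1.39 log2 in the male arrays and 0.63 in the females, Ccl9 by 0.35 and 1.11. The smallest adjusted p among these was 0.62.

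**Figure D5:**
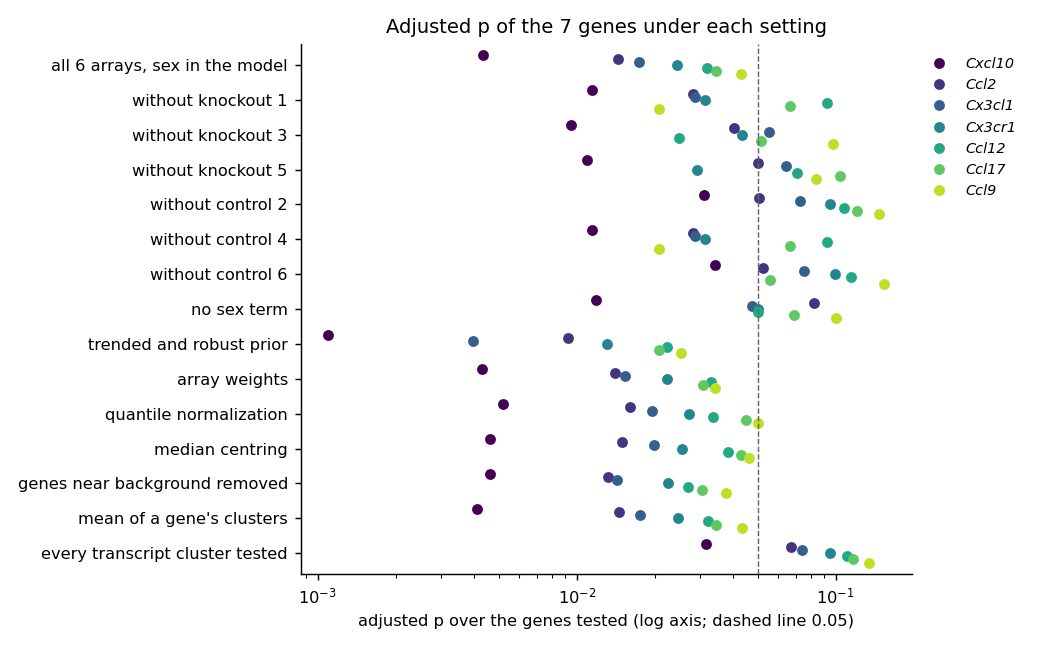
Adjusted p (log axis) of the 7 genes that passed under the main setting and 14 alternatives, 1 colour per gene and points staggered vertically within a row, with a dashed line at 0.05. Cxcl10 lies left of the line in every row, and the other 6 lie right of it without control 2, without control 6 and when every transcript cluster is tested.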

How the data were processed

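Kidney RNA of 6 samples, 3 labelled knockout and 3 control, was measured on 1 array each (400 ng). As deposited, the values are the authors' normalized log2 expression per transcript cluster, used as they stand. The submitters' processing notes name RMA, limma and R 3.4.0 but give no roles. A genome build is not given in the sources used here. Of 41345 clusters, 23521 had 1 gene symbol, 1814 several and 16010 none; RefSeq identifiers (GRCm38.p6) matched 23328 and changed 0 symbols. The brightest cluster stood for a gene with more than 1, leaving 22180 genes. limma 3.58.1 (R 4.3.3) fitted genotype and sex with default moderation (3 residual and 6.72 total degrees of freedom), and Benjamini-Hochberg adjustment ran over all genes at 0.05. Errors are limma's SE or the SD over 3 arrays; the number of arrays limits the precision. The fit was tested on simulated data.

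The members, lists and tests were chosen with earlier results of these data known. Of 187 list entries, 172 were measured. Per-array values are given for called members and for receptors above background. Pathway lists name up to 6 called genes each by smallest p; other pathway genes, all marker genes and other per-array values were chosen after they were seen. Alternatives were no sex term, each array left out, another prior, array weights, 2 normalizations, removal of genes near background, averaged clusters and a test of every cluster. The stricter NF-kB form was added after seeing the data.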

Additional observations from a re-analysis of the deposited data

How the results depend on the processing

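No paired analysis was possible because the labels give each array its own number, shared by no array of the other group. Over the 14 alternatives no called member reversed its direction. With 1 array left out, called members numbered 1 to 6 (7 with all arrays), pathway genes 4 to 15 (21), markers of other cell types 15 to 27 (30), members with a sex effect 0 to 1 (2) and all genes 344 to 1249 (1596). For the genotype effect, the fits without knockout 1 and without control 4 are the same. Each leaves 1 male that the sex term takes up. Their sex effects rest on different males and are not the same. Without the sex term 3 members, 8 pathway genes and 471 genes were called. When every transcript cluster was tested, with 41345 features in the adjustment, 1 member, 3 pathway genes, 13 markers, 0 members with a sex effect and 239 genes were called. The other settings called 6 to 8 members. With the 95th percentile of the olfactory and vomeronasal receptor genes as the background limit (3.66 log2) 22 members were near background, Ccl12 among them, and with their median (2.22 log2) 1 was; the cause of these changes was not tested. None of the 13 members near background in both groups passed, which does not show that they did not differ.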
